A study of Folsomia candida with 36 samples.

Results

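The springtail Folsomia candida is a small soil-dwelling hexapod, and the 100 genes described here are those whose expression fell most steadily over 3 days in unexposed animals. They were chosen by their course in the 18 control libraries. CPM is a gene's count scaled to a common library total. Those whose mean over all 36 libraries reached 5 CPM were ranked by the Pearson correlation of log2(CPM + 0.5) with time in hours over the controls, and the 100 most negative were taken. They are 100 of 11719 genes that reached this level and of 28734 gene models in all. The course in controls is therefore what chose them and is given without a test, whereas the 18 imidacloprid libraries entered only the limit on the mean level, not the ranking, and their course over time is tested.

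Wild-type animals of the Berlin strain were put on a natural soil, LUFA2.2, in pools of 70, and whole bodies were sampled every 12 h up to 72 h. Exposed animals met imidacloprid in the soil, 0.25 mg for each kg of its dry weight, and control soil was given water alone. Each of the 12 groups of treatment and time held 3 libraries, with total counts per library from 20280135 to 42146055. Nothing in the labels says whether pools came from separate cultures, so p-values measure the spread between these libraries, which may be partly technical.

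Imidacloprid is a neonicotinoid insecticide that binds nicotinic acetylcholine receptors, the channels through which arthropod nerves signal across many synapses. The concentration is the EC20 for reproduction, at which reproduction is lowered by 20%. Springtails keep moulting as adults and alternate between moulting and reproduction, and moving animals to a new soil changes food, moisture and microbes at the same time, so transcript levels of a pool can drift over days with or without a toxicant. The deposited table gives genes by identifier only. None of the identifiers (0) was found in a RefSeq table of 27231 genes of the species, so the products, positions and sequences of the 100 genes are not used here, and they are described by what they did.

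Some libraries stood apart from the others of their group. A set of 108 genes that vary together was high in 11 libraries, of which 7 were exposed: imidacloprid 12 h replicates 2 and 6, 24 h replicate 3, 60 h replicates 3 and 5, 72 h replicate 1 and library 71 of the 72 h group. The others were control 36 h replicate 5, 48 h replicates 2 and 6 and 72 h replicate 5. None (0) of the 100 falling genes belongs to this set. Results are given below with and without these libraries. Counts of called slopes and mean differences are also given with the level of the set as a covariate. The part of the set in the results was not tested otherwise.

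In controls the 100 genes fell by a median of 0.48 log2 units per 24 h (edgeR slope), which amounts to a 2.31-fold fall over the 60 h between the first and last samples. Their correlations with time ran from -0.949 to -0.697. At the limit of the rule, Fcan01_15454 at -0.700 and Fcan01_21962 at -0.697 were the last genes inside, and Fcan01_06680 and Fcan01_04158, both at -0.696, the first outside, so the limit cuts through a continuous range. The slopes in controls ran from -2.41 to -0.11 log2 units per 24 h, and steepness and steadiness are not the same thing: 14 genes fell by more than 1 log2 unit per 24 h, and 22 fell by less than 0.25.

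Fcan01_12963 had the most negative correlation in controls. It stood at 411, 642 and 608 CPM in the 12 h controls, at 217, 257 and 291 CPM at 24 h, and at 211, 145 and 223 CPM at 36 h. It went on to 137, 68.4 and 105 CPM at 48 h, to 77.0, 74.7 and 75.2 CPM at 60 h, and to 32.9, 26.7 and 80.0 CPM at 72 h. Each control library from 48 h on lay below each of those up to 36 h. Fcan01_26900, the next in rank, went from 54.6 CPM ± 12.6 (SD, n = 3) at 12 h to 4.85 ± 2.17 at 72 h in controls.

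With imidacloprid Fcan01_12963 stood at 1075, 551 and 341 CPM at 12 h, at 417, 475 and 238 CPM at 24 h, and at 331, 282 and 164 CPM at 36 h. It stood at 107, 402 and 264 CPM at 48 h, at 108, 97.2 and 99.9 CPM at 60 h, and at 146, 83.9 and 87.5 CPM at 72 h. All exposed libraries at 72 h lay below all those at 12 h and at 24 h, while the libraries at 48 h spanned a wide range. Its slope was -1.07 ± 0.17 log2 units per 24 h (SE; edgeR adjusted p = 0.00261), a 6.35-fold fall over 60 h. Fcan01_26900 held 252, 68.9 and 63.9 CPM in exposed animals at 12 h and 22.8, 5.66 and 6.43 CPM at 72 h, with no overlap. It fell by 1.32 ± 0.22 log2 units per 24 h (SE; edgeR adjusted p = 0.00261), 9.87-fold over 60 h.

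The 100 genes also fell in exposed animals, whose libraries had no part in the ranking. In the imidacloprid libraries 99 of 100 had a negative slope over time and 48 were called as falling, while 0 were called as rising (edgeR quasi-likelihood test, Benjamini-Hochberg adjusted p under 0.05 over 19176 genes). Among all genes tested, 1.12% were called as falling and 2.57% as rising, and among the 11719 genes with a mean of 5 CPM or more, 1.39% were called as falling. Of the genes at 5 CPM or more, 58.6% had a negative slope, with a median of -0.04 log2 units per 24 h. The median slope of the 100 genes was -0.33, which is a 1.78-fold fall over 60 h. DESeq2 called 60 of the 100 as falling, against 2.76% of all genes, and limma-voom 47, against 1.12%.

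**Figure D1:**
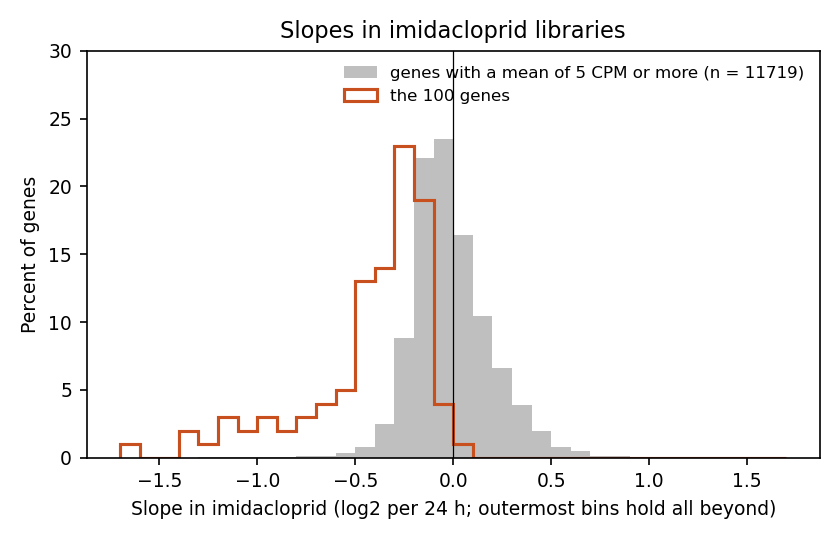
Distribution of slopes over time in the 18 imidacloprid libraries (log2 units per 24 h, edgeR), as percent of genes in bins, for the 100 genes (outline) and for the 11719 genes with a mean of 5 CPM or more (grey). The median is -0.33 for the 100 genes and -0.04 for all genes shown in grey, and 1 of the 100 lies above 0.

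The count of 48 depended on which libraries and time points entered. It was 39 to 49 when any single exposed library was left out, 37 without the 12 h libraries, 20 without the 72 h libraries, 7 for 72 h against 12 h alone and 1 without the 7 exposed libraries high in the co-varying set, where 96 of 100 slopes were still negative and 50 had an unadjusted p under 0.05. With the level of the set as a covariate 47 were called, against 202 of all 19176 genes tested. Over all genes 513 of 18866 were called as falling without 12 h and 43 of 18816 without 72 h. For 72 h against 12 h it was 14 of 19176. Without the 7 libraries it was 4 of 18905, and 2439 of the 18905 had an unadjusted p under 0.05. Leaving out any single exposed library gave 115 to 574 over all genes. Each called slope of a gene named here lost its call without these 7 libraries, with values from -1.60 for Fcan01_06632 to -0.34 for Fcan01_03224, all still below 0. Over all alternative fits Fcan01_12963, Fcan01_26900 and Fcan01_17513 each lost the call in 3 and kept it in 31. Fcan01_03224 lost it in 2 and kept it in 32.

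Single libraries show the same course. At 12 h the mean level of the 100 genes, taken for each gene relative to its own mean over the 36 libraries, was 1.00, 0.49 and 0.49 log2 units in the exposed libraries. It was 0.45, 0.32 and 0.40 at 24 h, 0.23, 0.09 and -0.03 at 36 h, and -0.28, 0.19 and -0.07 at 48 h. At 60 h it was -0.43, -0.29 and -0.30, and at 72 h it was -0.15, -0.42 and -0.28. All exposed libraries at 60 and 72 h lay below all those up to 36 h, whereas the libraries at 48 h overlapped with both. Gene by gene, the 3 exposed libraries at 72 h all lay below the 3 at 12 h in 62 of the 100 genes, against 3.93% of the 11719 genes. Since these are bulk samples of whole animals, fewer cells of a type and less RNA per cell cannot be told apart.

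**Figure D2:**
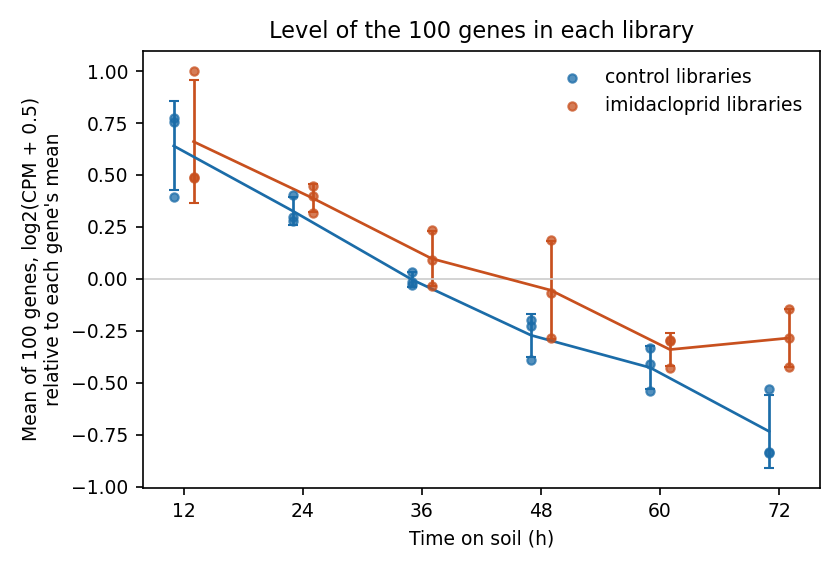
Mean level of the 100 genes in each of the 36 libraries against time on soil, as log2(CPM + 0.5) relative to each gene's mean over all libraries. Points are libraries, lines join group means and bars show the SD (n = 3). The controls were used to choose the genes. The exposed libraries go from between 0.49 and 1.00 at 12 h to between -0.42 and -0.15 at 72 h, and do not fall further after 60 h.

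The fall in exposed animals was spread over the first 60 h, and group means were no lower at 72 h than at 60 h for most of the genes. The median change of the 100 genes between group means of exposed animals was -0.22 log2 units from 12 to 24 h, with 76 genes lower, where the 11719 genes had a median of 0.10 and 32.6% were lower. From 24 to 36 h it was -0.21 with 83 lower, against 0.05 and 42.4%. The step from 36 to 48 h set the 100 genes least apart up to 60 h, at -0.13 with 74 lower, against -0.10 and 60.8%. From 48 to 60 h it was -0.25 with 84 lower, against -0.02 and 53.2%. From 60 to 72 h it was 0.04, with 42 of 100 lower, against -0.02 and 54.0%. In controls the same last step was -0.24, with 86 of 100 lower, but that step helped to choose the genes. A departure from a straight line was tested in the exposed libraries with a quadratic term. EdgeR called 0 of the 100 genes (0 of 19176), although 72 of 100 terms were above 0, the sign of a fall that levels off. The median term was 0.08, against 0.01 for all genes tested. That lean rested on few libraries. Terms below 0 numbered 28, but 50 without the libraries high in the co-varying set and 45 without 72 h. They numbered 49 without imidacloprid 72 h replicate 1 and 47 without 12 h replicate 2. Leaving out any other single exposed library gave 18 to 29. An unadjusted p under 0.05 was found for 19 of the 100 genes, 18 of them with a term above 0, and for 13.9% of all genes tested. DESeq2 called 3 of the 100 for this term, all above 0, against 1.17% of all genes called above 0, and limma-voom called 0 of the 100 and 0 of 19176.

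The animals were kept in a cycle of light and dark, and samples 12 h apart fall at alternate hours of the day. With a straight line in time in the model, edgeR called 0 of the 100 genes as differing between 24, 48 and 72 h and the other times in exposed animals (0 of 19176 in all). An unadjusted p under 0.05 was found for 2 of the 100 genes and for 2.49% of all genes. DESeq2 and limma-voom also called 0 of the 100, against 15 and 0 of all 19176 genes tested. In simulated data of this design 64% of changes of 1 log2 unit and 10% of those of 0.5 were called, so most changes of 0.5 would be missed.

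**Figure D3:**
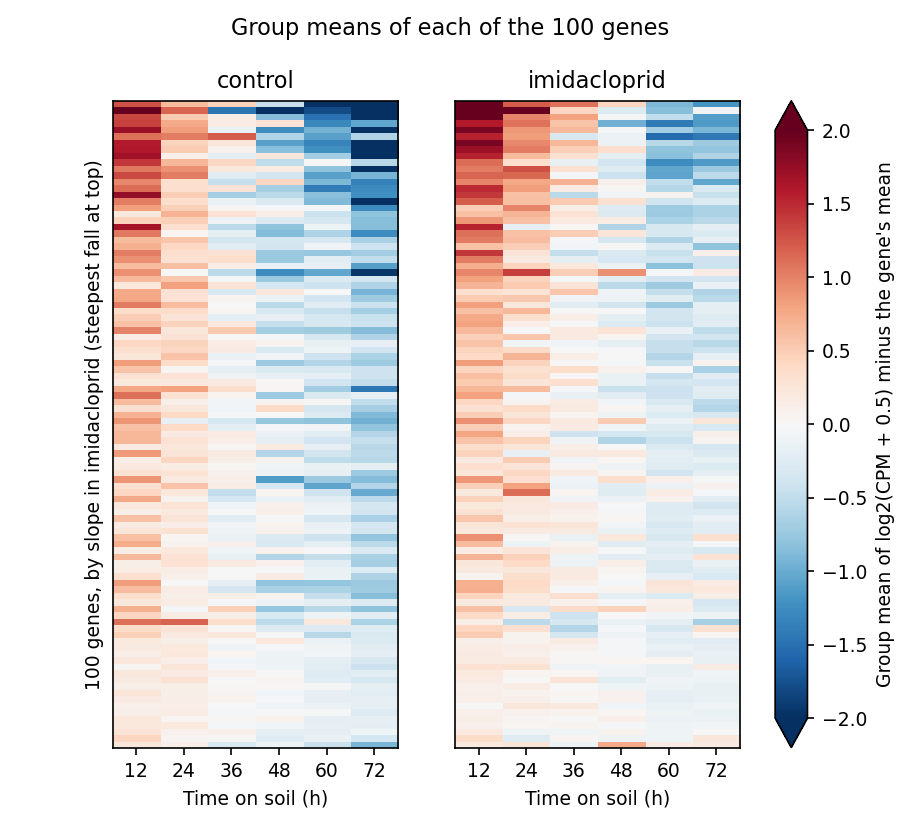
Group means (n = 3) of log2(CPM + 0.5) of each of the 100 genes by time in controls (left) and with imidacloprid (right), relative to the gene's mean over the 12 groups, with genes ordered by slope in imidacloprid. Colours stop at -2 and 2. The levels go from above to below the mean in both panels, and 80 of 100 genes were lower at 72 than at 36 h with imidacloprid.

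Fcan01_17513 had the steepest called slope, a fall by 1.64 ± 0.27 log2 units per 24 h (SE; edgeR adjusted p = 0.00261), 17.1-fold over 60 h. It stood at 177, 24.3 and 12.8 CPM in the exposed libraries at 12 h, at 22.2, 15.4 and 26.2 CPM at 24 h, and at 36.8, 13.6 and 13.7 CPM at 36 h. It then stood at 8.00, 19.0 and 10.9 CPM at 48 h, at 4.55, 6.36 and 2.91 CPM at 60 h, and at 6.86, 1.75 and 3.56 CPM at 72 h. The single value of 177 CPM lies far above every other library, and without it (imidacloprid 12 h replicate 2) the slope was -1.11. All exposed libraries at 60 and 72 h lay below all those at 12, 24, 36 and 48 h.

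Fcan01_06632 came next, with a fall by 1.35 ± 0.32 log2 units per 24 h (SE; edgeR adjusted p = 0.0262). Its exposed libraries held 68.9, 10.8 and 57.4 CPM at 12 h and 60.1, 46.5 and 24.9 CPM at 24 h. They held 26.1, 5.87 and 3.76 CPM at 36 h, 2.25, 9.92 and 5.50 CPM at 48 h, 0.217, 5.02 and 13.0 CPM at 60 h, and 3.58, 11.8 and 4.89 CPM at 72 h. Most of its fall came between 24 and 48 h, and the libraries from 36 h on overlap with each other. The lowest value rests on 7 counts. Its call was kept in 26 alternative fits and lost in 8. Those that lost it include the fits without 12 h, without 72 h, and without either imidacloprid 72 h replicate 1 or library 72 of that group, where slopes ran from -1.78 to -1.32.

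The most abundant of the 100 genes, Fcan01_15132, had a mean of 5063 CPM and alone held much of their reads. In exposed libraries it stood at 17308, 11134 and 6164 CPM at 12 h, at 5853, 6921 and 6757 CPM at 24 h, and at 4570, 4394 and 1261 CPM at 36 h. It stood at 1517, 7570 and 3313 CPM at 48 h, at 576, 3651 and 909 CPM at 60 h, and at 2203, 1481 and 776 CPM at 72 h. Its slope was -1.15 ± 0.24 log2 units per 24 h (SE; edgeR adjusted p = 0.0119), and every 72 h library lay below every 12 h library. The call was kept in 28 alternative fits and lost in 6, among them those without 12 h and without 72 h, at slopes of -1.03 and -1.21. Fcan01_21531, the next most abundant, fell by 0.63 ± 0.13 log2 units per 24 h (SE; edgeR adjusted p = 0.0110), from 1387 CPM ± 698 (SD, n = 3) at 12 h to 494 ± 150 at 72 h. That call was kept in 30 alternative fits and lost in 4, among them the fit without 72 h, at -0.73.

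Together the 100 genes took 2.17% ± 0.857 (SD, n = 3) of all counts in exposed animals at 12 h and 0.639% ± 0.111 at 72 h. Without Fcan01_15132 the shares were 1.02% ± 0.325 and 0.490% ± 0.0477. In controls the 100 genes went from 1.75% ± 0.495 to 0.652% ± 0.0706.

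At the other end, Fcan01_00164 was the only one of the 100 genes with a slope above 0 in exposed animals, at 0.02 ± 0.15 log2 units per 24 h (SE; edgeR adjusted p = 0.942). In exposed libraries it held 16.3, 5.89 and 10.7 CPM at 12 h and 16.1, 7.90 and 7.90 CPM at 72 h, so both groups overlap over most of their range. In controls it had gone from 8.62, 15.4 and 8.49 CPM to 5.03, 3.25 and 5.30 CPM. The sign of its slope in exposed animals turned in 6 of 34 alternative fits. Fcan01_15539 followed, at -0.04 ± 0.08 (SE; edgeR adjusted p = 0.780), with 14.0, 14.6 and 17.7 CPM at 12 h and 14.0, 13.5 and 14.4 CPM at 72 h in exposed animals, and its sign turned in 3 of 34. At 24 h it stood lower, at 9.40, 9.66 and 10.8 CPM at 24 h.

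**Figure D4:**
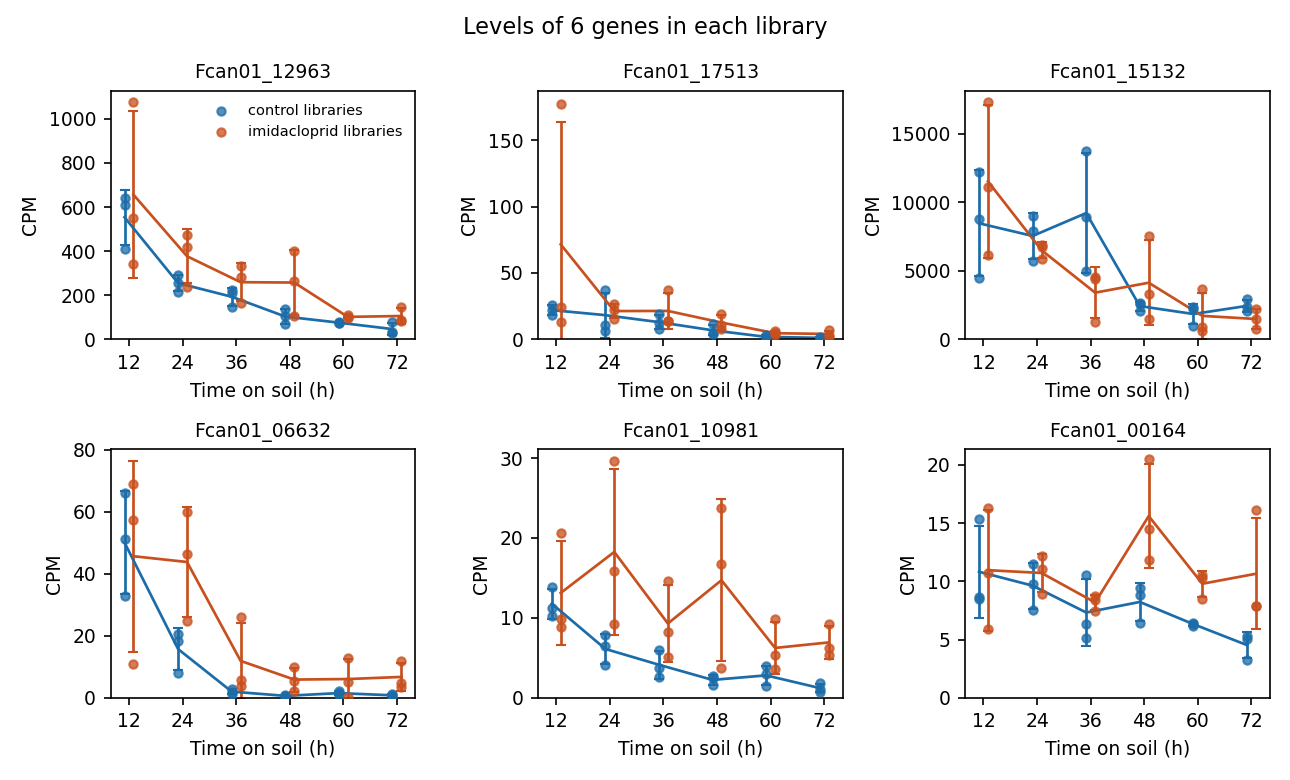
CPM in each library against time on soil for 6 of the 100 genes, on axes that start at 0. Points are libraries, lines join group means and bars show the SD (n = 3). The upper row shows genes that fell in both treatments, such as Fcan01_12963. The lower row shows 2 genes called higher with imidacloprid in the mean over the 6 time points, Fcan01_06632 and Fcan01_10981, though not at each of them. It also shows the gene with a slope above 0, Fcan01_00164.

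The rank in controls went with the share of calls in exposed animals. Of the 25 genes with the most negative correlations in controls 18 were called as falling with imidacloprid, then 14, 9 and 7 of the following groups of 25. Their median slopes with imidacloprid were -0.60, -0.30, -0.26 and -0.25 log2 units per 24 h. The 14 genes that fell by more than 1 log2 unit per 24 h in controls had a median slope of -1.05 with imidacloprid, and 13 of them were called. The 22 genes with the shallowest fall in controls, by less than 0.25, had a median of -0.13, and 7 were called. The 52 genes without a call had a median slope of -0.22, 51 of them were below 0 and 24 had an unadjusted p under 0.05, where 21.3% of the 11719 genes did. In simulated data 96% of slopes of 1 log2 unit per 24 h and 58% of those of 0.5 were called (19176 genes simulated), so a missed call is no sign of a level course.

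Calls were found at high and at low abundance. The 50 more abundant genes (median 76.2 CPM) had 27 calls and the 50 less abundant (median 12.5 CPM) had 21. Their median slopes with imidacloprid were -0.28 and -0.39, with median standard errors of 0.08 and 0.14.

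The slopes were shallower with imidacloprid than in controls in 76 of the 100 genes, with medians of -0.33 and -0.48 log2 units per 24 h. The control slope is what chose the genes, so this difference was not tested. The reading was also turned around, after the data were examined. The 100 genes with the most negative correlation in the imidacloprid libraries were read in the controls, where 99 had a negative slope and 34 were called as falling, against 0.7% of genes at 5 CPM or more. In that list 80 of 100 genes were shallower in controls than with imidacloprid, with medians of -0.26 and -0.38. Both lists thus fell less in the treatment that did not choose them. They shared 41 genes, 41% of each, and all 36 libraries entered the limit on the mean level of both, while the rankings had no library in common. The mirror list, the 100 genes that rose most steadily in controls, had a median slope of 0.37 with imidacloprid, and 53 were called as rising, where 2.29% of genes at 5 CPM or more were.

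**Figure D5:**
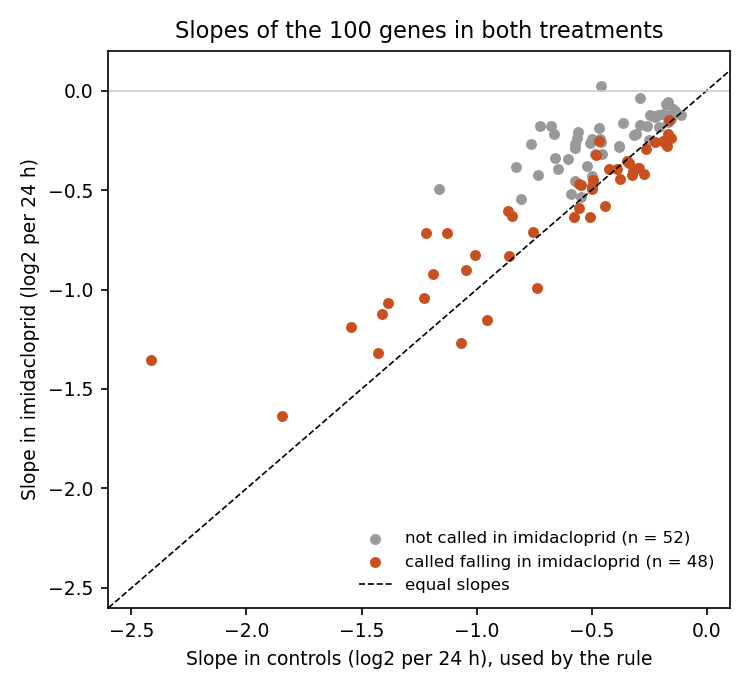
Slope of each of the 100 genes with imidacloprid against its slope in controls (log2 units per 24 h), with the line of equal slopes dashed. The 48 genes called as falling with imidacloprid are coloured. Most points (76) lie above the line, and the control slopes were used to choose the genes.

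Whether the genes differed in mean level between treatments was read over the 6 time points weighted equally. The controls that ranked the genes enter this comparison, and a ranking by correlation favours genes with little scatter in controls, so the calls of the fit over all genes are a description and not a test. Of the 100 genes 3 were called higher with imidacloprid and 1 lower (edgeR adjusted p under 0.05 over 19600 genes), where 0.168% of all genes were called higher and 0.138% lower (0.162% and 0.102% of those at 5 CPM or more). DESeq2 called 10 higher and 1 lower, against 0.357% and 0.321% of all genes, and limma-voom 1 of each, against 0.117% and 0.102%. The difference was above 0 in 75 of the 100 genes and in 48.2% of all genes, with a median of 0.06 log2 units for the 100. These counts changed with single libraries, from 2 without any of several libraries to 7 without imidacloprid 48 h replicate 3. Over all genes that last run called 43 higher and 25 lower of 19999. Without the 11 libraries high in the co-varying set 0 were called, and over all genes 5 higher and 0 lower of 19521. With the level of that set as a covariate 2 were called higher and 1 lower, and over all genes 21 and 24 of 19600.

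Fcan01_06632 had the largest difference. In controls it fell from 32.9, 51.4 and 66.1 CPM at 12 h to 8.16, 18.4 and 20.7 CPM at 24 h and to 2.73, 1.35 and 1.95 CPM at 36 h. With the exposed values given above, both treatments overlapped at 12 h, while every exposed library lay above every control at 24, 36, 48 and 72 h. The mean difference was 2.02 ± 0.35 log2 units (SE; 4.05-fold). It was not called by limma-voom, at 1.60, or without the 11 libraries, at 0.75. At 60 h an exposed library with 0.217 CPM lay below the controls of 2.10, 1.55 and 0.929 CPM.

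Fcan01_10981 was 2.93-fold higher with imidacloprid, a difference of 1.55 ± 0.24 log2 units (SE). At 12 h the exposed libraries held 20.6, 8.86 and 9.85 CPM and the controls 10.2, 13.8 and 11.3 CPM. At 72 h they held 9.25, 5.35 and 6.18 CPM against 0.753, 1.09 and 1.83 CPM. The groups overlapped at 12 h and were far apart at 72 h. Its slope with imidacloprid was -0.50 ± 0.23 and did not pass the test (edgeR adjusted p = 0.233). The call of its mean difference was kept in 46 of 47 alternatives.

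The other calls were small. Fcan01_23023, named because so short a list is given in full, was 1.53-fold higher, at 0.61 ± 0.14 log2 units (SE). It kept its call in 13 of 47 alternatives. Fcan01_03224 was the gene called lower, 1.21-fold, at -0.27 ± 0.06 (SE), and kept its call in 23 of 47. It stood at 75.6 CPM ± 5.24 (SD, n = 3) with imidacloprid and 67.6 ± 2.62 in controls at 12 h, and at 34.2 ± 0.708 and 45.3 ± 2.41 at 72 h. Its fall in exposed animals, by 0.42 ± 0.06 log2 units per 24 h, was called too (SE; edgeR adjusted p = 0.000714).

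At single time points the control values chose the genes, so the differences are given without a test. The median difference of the 100 genes, imidacloprid minus control in log2 units, was -0.00 at 12 h with 49 genes higher, 0.04 at 24 h with 57, 0.09 at 36 h with 63, 0.07 at 48 h with 65, -0.00 at 60 h with 49 and 0.32 at 72 h with 85. Among the 11719 genes the share higher with imidacloprid was 51.3% at 12 h, 50.1% at 24 h and 58.4% at 36 h. It was 45.1% at 48 h, 41.4% at 60 h and 47.1% at 72 h. At 36 h their median difference, 0.08, was close to that of the 100 genes. At 72 h the mean level of the 100 genes was between -0.42 and -0.15 in the exposed libraries and between -0.84 and -0.53 in the controls, so the groups did not overlap there.

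Beyond the trend with time, the deviations of the 100 genes were compared without a test. In exposed animals time point accounted for a median of 58.3% of a gene's variation in log2(CPM + 0.5) between libraries, against 30.5% for the 11719 genes. Of what was left, the deviations from group means, pairs of the 100 genes had a median correlation of 0.14 over the 18 exposed libraries, and all pairs of the 11719 genes 0.03. Correlations over 0.5 were found in 22.2% of the 4950 pairs and in 27.7% of all pairs. All points of such a correlation share the same libraries and their scaling. The first component of these deviations took 49.2% of their sum of squares, and imidacloprid 48 h replicate 3 had the most weight in it, 20.5%.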

How the data were processed

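Whole-body RNA of pooled animals was sequenced as 36 libraries, 3 for each of 2 treatments and 6 time points. Per the labels' protocols, TruSeq stranded mRNA libraries were sequenced, reads were cleaned with Trim Galore (a version of 0.6.7 is given for it or for Cutadapt), quantified against a transcriptome by Salmon 1.4.0, and DESeq2 1.28.1 did the normalization. What the authors deposited are estimated counts for each gene model, ahead of that normalization, since totals differ between libraries. Whole numbers filled the table (0 exceptions), so rounding had no effect. Salmon splits reads between similar transcripts, which makes counts of near-identical copies uncertain. The labels name no transcriptome release.

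The members, lists and tests were chosen with earlier results of these data known. CPM values are counts scaled to a common column total. Slopes came from edgeR 4.0.16 in R 4.3.3 on the 18 imidacloprid libraries (filterByExpr, minimum count 10 and minimum total 15, 19176 genes, all 100 members among them; TMM factors 0.887 to 1.08; robust quasi-likelihood fit, 16 residual degrees of freedom; biological coefficient of variation 40.0%), and mean differences from all 36 with 12 group means (19600 genes). Benjamini-Hochberg adjustment ran over all genes of a comparison, at 0.05. SE is the estimate's size over the square root of F. Alternatives used DESeq2 1.42.0, limma-voom (limma 3.58.1), other scalings, filters and member rules, and left-out libraries. The steps were tested on simulated data.

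In the 72 h imidacloprid group 2 libraries carry replicate number 4 and are told apart by library numbers 71 and 72. Their chi-square per degree of freedom was 87.2, within the range of 16.9 to 277 over pairs of a group, so they were counted as 2 replicates. Whether they came from separate pools is not known. Named genes followed a rule of at most 2 per direction and comparison: the most negative correlation in controls, the limit of the rule, the steepest called and the most positive slopes with imidacloprid, the largest called mean differences and the highest mean CPM. Gene lists by product name were not used, since identifiers have no names here.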

Additional observations from a re-analysis of the deposited data

How the results depend on the processing

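The number of genes called as falling with imidacloprid (48) moved by over 1.5 times in 5 settings: 23 without libraries with irregular titles (12 h replicate 5 and 60 h replicate 1 left out, libraries 71 and 72 summed), 20 without 72 h, 7 for 72 h against 12 h, 1 without libraries high in the co-varying set and 1 with a replicate block. Over all genes tested these settings called 57, 43, 14, 4 and 3 as falling, against 215. They use fewer libraries or more terms; the cause was not tested further. Leaving out single libraries gave 34 to 53, with the lowest without control 72 h replicate 5 in the choice of genes, and genes chosen in exposed animals and read in controls gave 34. Of the 48 calls, 36 held in each of 18 runs that left out an exposed library, 18 held without 72 h, and DESeq2 kept all 48. The median slope (-0.33, with a spread between pools of 0.05) was -0.27 without libraries high in the co-varying set, -0.26 without 12 h, -0.41 without 72 h, -0.47 for genes chosen by least-squares slope and -0.42 with a limit of 1 CPM. Leaving out single libraries gave -0.38 to -0.27.

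The count of 4 genes that differed in mean level was 11 with DESeq2 and 2 with limma-voom. It was 2 with no filter, with the filter at 5 CPM, with libraries 71 and 72 summed and with the replicate block. It was 0 without libraries high in the co-varying set, and 2 to 7 with single libraries left out. Over all genes the main fit called 33 higher and 27 lower of 19600. With no filter it was 29 and 23 of 27528, and with the filter at 5 CPM 19 and 13 of 13124. With libraries 71 and 72 summed it was 27 and 21 of 19929, and with the replicate block 18 and 13 of 19600. Without the libraries high in the set it was 5 and 0 of 19521. Curvature was called in 3 genes by DESeq2, against 225 above 0 and 27 below among all 19176. With single libraries left out it was called in 0 to 1. The 1 was found without imidacloprid 12 h replicate 5, where 16 of 19422 genes were called above 0 and 1 below. Alternation was called in 0 of the 100 under every setting run. Over all genes DESeq2 called 15 of 19176 for alternation, and edgeR 2 of 19642 without imidacloprid 36 h replicate 2. The slope of Fcan01_00164 (0.02) turned to -0.0058 without irregular titles, and lay between -0.083 and 0.141 with single libraries left out. For 72 h against 12 h its change over the whole 60 h, not per 24 h, was -0.071 log2 units. The slope of Fcan01_15539 (-0.04) turned to 0.014 without libraries high in the co-varying set and to 0.184 without 12 h. With single libraries left out it lay between -0.082 and 0.027.

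Whether the replicate numbers pair the samples is not known. Deviations of same-numbered libraries of both treatments had correlations from -0.27 to 0.45 over 8 pairs. Libraries with unlike numbers were not compared, nor were same-numbered libraries of different time points, so these values cannot decide it. Among exposed libraries the number 4 occurs at 72 h alone, so a block for the number takes up part of the time course. It left a median slope of -0.31, with 97 of 100 below 0 and 48 at an unadjusted p under 0.05. Over all genes tested 1371 of 19176 were at an unadjusted p under 0.05. Depth limits few values: 2 of the 100 genes had a library with under 10 counts.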

Other observations

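Among the 100 genes 3 pairs have consecutive identifiers, one of them Fcan01_26900 and Fcan01_26901, which also rank next to each other in controls and were named here after their values were seen. They stood at means of 33.1 and 388.6 CPM over all libraries. Whether consecutive identifiers are neighbours in the genome was not examined.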
